A study of Homo sapiens with 6 samples.

Results

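G2/M and mitosis genes encode the proteins that carry a cell from the end of DNA replication through chromosome segregation and division. The group described here holds 39 such genes, chosen by name as a standard list of this program, and all 39 were found among the 45372 Ensembl gene IDs measured. The cells were HUVECs, primary endothelial cells from the human umbilical vein, bought from a supplier, labelled wild type, grown in endothelial growth medium and used after 3 passages. Control cells (3 libraries) were transfected by lipid reagent with a non-specific control RNA and mimic cells (3 libraries) with a miR-409-3p mimic, a synthetic copy of that microRNA, each at 50 nM, and the labels give a time of 48 h. The titles of all 6 samples also call the cells not treated, with no word on which treatment is meant, and no untransfected group was analysed here. The comparison asks which transcripts differ between endothelial cells supplied with this microRNA and cells given the control RNA. The labels call the samples biological replicates without saying that they came from separate cultures or donors, so the p-values cover the spread between these samples only.

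Entry into mitosis is driven by the kinase CDK1 bound to A- and B-type cyclins. Mitotic kinases, motor proteins and the kinetochore then build the spindle and attach the chromosomes, and the spindle checkpoint holds back the anaphase-promoting complex (APC/C), a ubiquitin ligase, until every chromosome is attached. Transcription of these genes is low in resting cells and peaks in G2 and M. It depends on the DREAM and MuvB complexes and on the factors MYBL2 and FOXM1, which act at a promoter element called the cell cycle genes homology region (CHR), often beside CCAAT boxes bound by NF-Y. Endothelial cells rest in most adult vessels and divide in culture and during vessel growth, so these genes are commonly read as a measure of proliferation.

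The promoters of the listed genes often hold this element, which the rule that chose the genes did not use. RefSeq promoters on GRCh38.p14 (250 bases before to 50 bases after the gene start) were found for 34 of the 39 genes, and AURKA, BIRC5, TTK, UBE2C and TPX2 had no entry. The CHR sequence TTTGAA, or TTCAAA for the same element on the other strand, was present in 23 of 34 (67.6%), against 1020 of 10287 promoters of tested genes (9.92%) and 15.5% of all 27305 promoters of this length. A match that began within 50 bases of the gene start was found in 18 of 34 (52.9%) and in 2.71% of promoters of tested genes. Matches from 1 gene of each of 8 roles are printed here in 30-base windows on the gene's strand, with the CHR letters in capitals, to show the element in its setting.
CCNB2, cyclin, chr15:59105105-59105134, plus strand: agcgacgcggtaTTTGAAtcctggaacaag
PLK1, mitotic kinase, chr16:23678848-23678877, plus strand: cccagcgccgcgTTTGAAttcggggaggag
BUB1B, spindle checkpoint, chr15:40161034-40161063, plus strand: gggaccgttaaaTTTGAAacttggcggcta
CENPA, kinetochore, chr2:26786026-26786055, plus strand: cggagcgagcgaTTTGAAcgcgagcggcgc
KIF11, kinesin, chr10:92593090-92593119, plus strand, CHR on the other strand: ctctgtctctttTTCAAAttgaggcgccga
NUSAP1, spindle assembly, chr15:41332882-41332911, plus strand: tggcgccagggaTTTGAAccgcgctgacga
PRC1, cytokinesis, chr15:90994538-90994567, minus strand: cccgtggcgcggTTTGAAattttgcggggc
MKI67, chromosome structure, chr10:128126435-128126464, minus strand: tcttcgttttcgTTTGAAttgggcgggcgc

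The CCAAT box, searched as CCAAT and ATTGG, stood in 27 of 34 promoters (79.4%), with at least 2 copies in 19 (55.9%), against 37.2% and 13.9% of promoters of tested genes. CHR and CCAAT stood together in 20 of 34 (58.8%) and in 4.31% of promoters of tested genes, and in 2 of these promoters, CDCA8 and MKI67, matched letters of both overlapped. The E2F sequence TTCCCGC (or GCGGGAA) was in 3 of 34 (8.82%), near the 10.4% of promoters of tested genes. Among 107 promoters of other mitotic genes, CHR was in 42 (39.3%), and within 50 bases of the start in 31 of the 107, with CCAAT in 56.1% and the E2F sequence in 16.8%. The 36 S phase and replication promoters found had the reverse mix of CHR and E2F, with CHR in 1 (2.78%) and the E2F sequence in 16 (44.4%). CCAAT was in 20 of these 36 (55.6%), near the share in the other mitotic genes. These are letter matches in a fixed window, described without a test, and a window with no match says only that these letters are not in it.

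Sequencing depth, estimated from the values, was 29600000 to 35600000 assigned reads per library. The 12 endothelial marker genes summed to 6124 to 6413 TPM in control and 6396 to 6582 TPM in mimic libraries, with PECAM1 at a mean of 1048 TPM and CDH5 at 832 TPM in control cells. TPM is a read count divided by gene length and scaled to 1 total per library. Levels may thus be compared between genes as far as the gene lengths used are right, and the sources do not give these lengths. The leukocyte genes PTPRC and CD3E and the globin genes HBA1 and HBB were listed at 0 in all 6 libraries, and 0 of the 9 tested markers of smooth muscle, fibroblasts, leukocytes and epithelium passed the test described below. The epithelial keratin gene KRT18 was high in both groups, at 281 and 264 TPM. Other markers of these lineages were measured too, with means over the 6 libraries of 81.4 TPM (SMTN), 17.8 TPM (CD68) and 16.5 TPM (KRT19). ACTA2 (8.66 TPM), COL1A2 (8.32 TPM), COL3A1 (4.03 TPM), EPCAM (2.12 TPM) and LUM (1.92 TPM) were lower. Under 1 TPM in all 6 libraries were 4 of 6 smooth muscle, 4 of 7 fibroblast, 5 of 6 leukocyte, 3 of 6 epithelial and 6 of 6 red cell and platelet markers.

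The mitotic program was strongly expressed in both groups. The mean over the 6 libraries ran from 14.8 TPM (CDCA3) to 318 TPM (CKS2), with a median over the 39 genes of 101 TPM, a level above that of 87.4% of tested genes. Of the 39, 20 had a mean of at least 100 TPM, and 37 had at least 20 TPM in every library. After CKS2 came TPX2 at 259 TPM, TOP2A at 256 TPM, CCNB1 at 225 TPM, DLGAP5 at 219.6 TPM and CDC20 at 219 TPM. CKS2 lay above all others in every library, whereas the ranges of neighbours in this order overlapped from TPX2 down to CDC20. At the low end CDCA3 and CDC25C (15.4 TPM) overlapped each other and were well below NEK2, the next at 38.9 TPM.

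**Figure D1:**
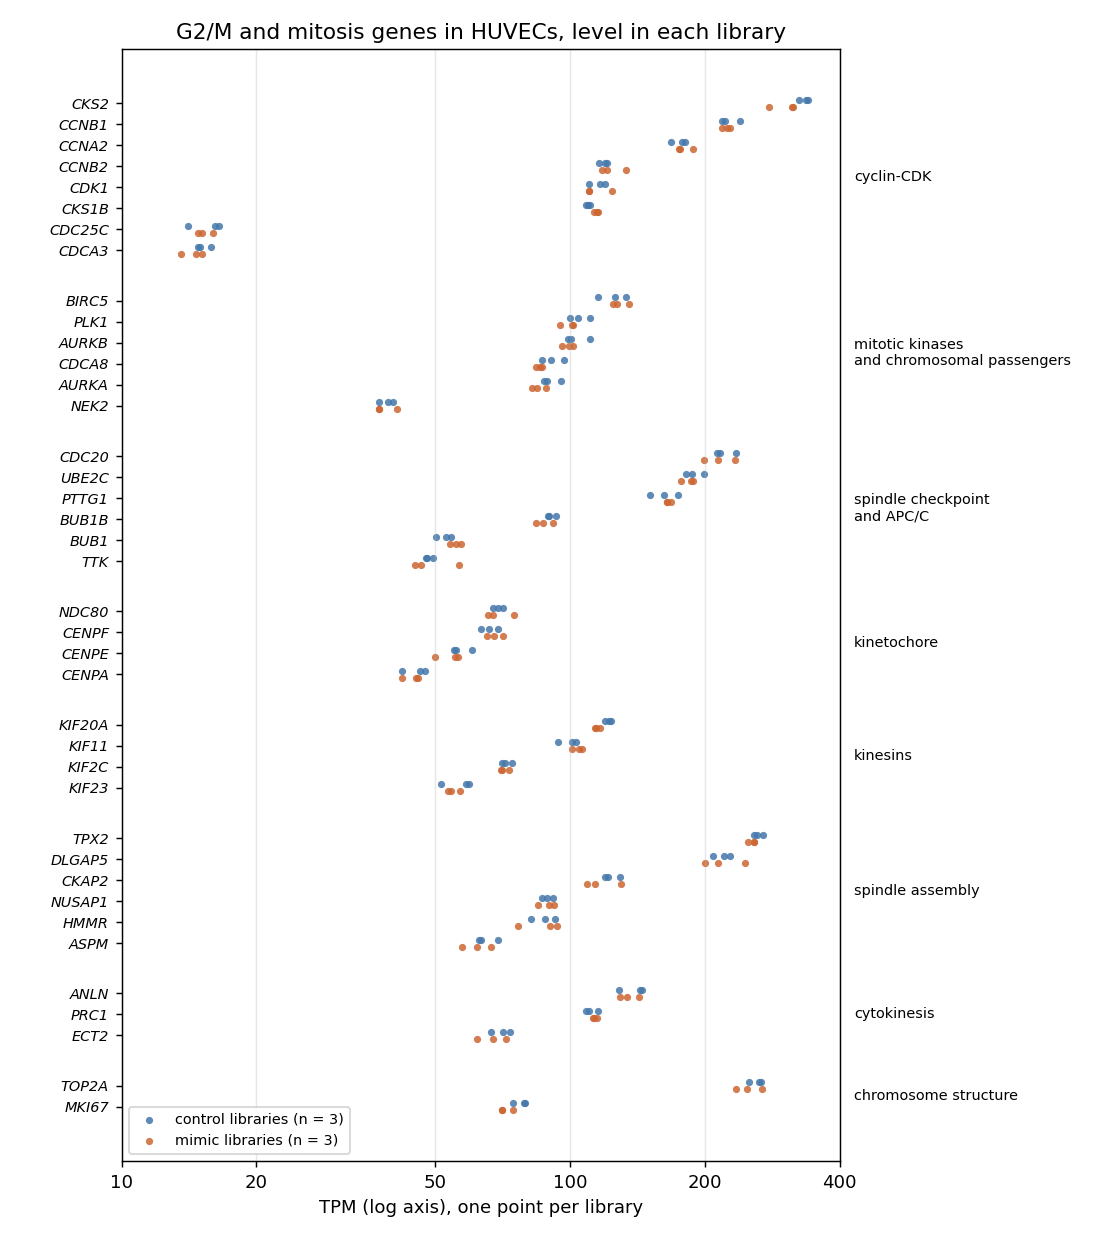
Level of each of the 39 genes in TPM on a log axis, grouped by role, with 1 point per library (3 control, 3 mimic). Points of the groups lie side by side for nearly every gene, from CDCA3 near 15 TPM to CKS2 near 318 TPM.

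No gene of the 39 differed between mimic and control cells past the threshold. By limma on log2(TPM + 1) over all 13680 tested genes, with Benjamini-Hochberg adjustment and a threshold of 0.05, 0 rose, 0 fell and 39 did not pass, where 0.431% of all tested genes were past it, 0.132% higher and 0.300% lower. Before adjustment, p was under 0.05 for 1 of the 39 genes (2.56%), a lower one, where it was for 10.7% of tested genes, 3.05% higher and 7.64% lower. All 39 passed the filter on low values, at least 1 TPM in at least 3 libraries, by a wide margin in both groups. The mimic mean was within 10% of the control mean for all 39 genes and within 5% for 29, the ratio running from 0.904 to 1.06.

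The intervals were narrow as well. Fold changes are given as mimic minus control in log2(TPM + 1), which understates changes of low genes, and over the 39 genes they ran from -0.15 to 0.084 with standard errors of 0.046 to 0.084. The 95% interval, taken gene by gene from the limma fit, lay within 1.25-fold in either direction for 39 of 39 genes, against 60.8% of all tested genes and 84.8% of the 7293 tested genes in the same range of mean TPM. Within that range the 7293 genes lay lower, with a median of 41.2 TPM beside 101 TPM, and had a median SE of 0.069 beside 0.060. They are thus not matched to the 39 genes in level. The lowest interval bound of any gene was -0.28 (CKS2) and the highest 0.22 (TTK). In 4 genes the groups did not overlap, 3 lower (CKS2, CDCA8, KIF20A) and 1 higher (CKS1B), where 15.7% of tested genes showed no overlap, 10.5% lower and 5.16% higher.

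**Figure D2:**
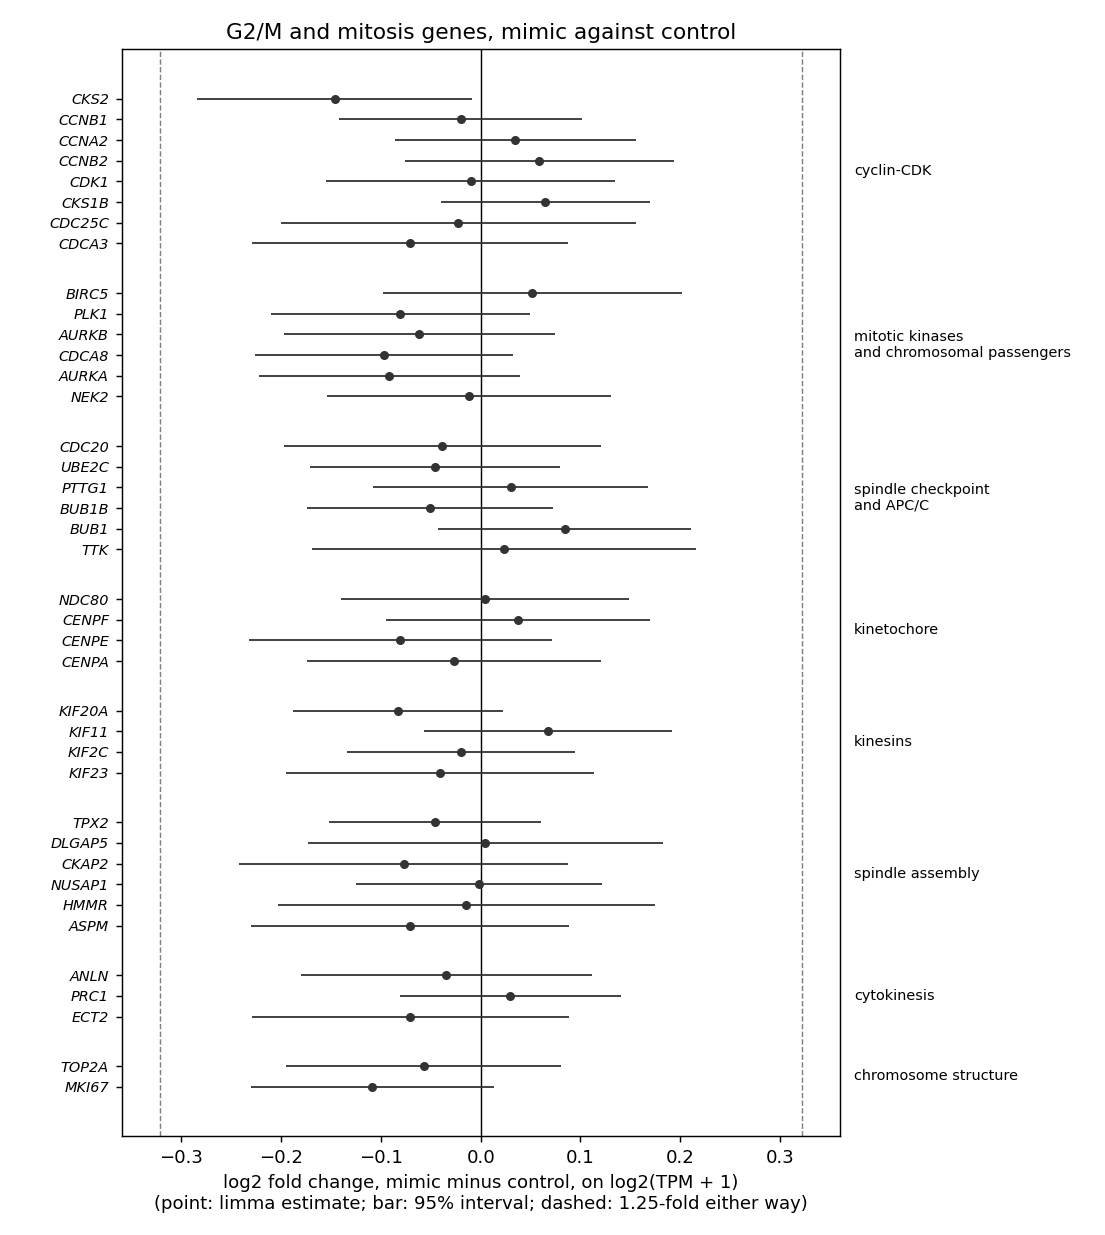
The log2 fold change of each of the 39 genes, mimic minus control (point, limma estimate from 3 against 3 libraries; bar, 95% interval), grouped by role, with dashed lines at 1.25-fold either way. Every interval lies between the dashed lines, and the CKS2 interval, from -0.28 to -0.0087, is the only one that leaves out 0.

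Among the genes of the cyclin-CDK engine, 0 of 8 passed, and the median log2 fold change was -0.015 (0.0064 under median-of-ratios and 0.0087 under quantile scaling). CDK1, the kinase that drives mitotic entry (chr10:60778331-60794852, plus strand, GRCh38), measured 110.5, 119.5 and 117 TPM in control libraries 1 to 3 and 110.2, 124 and 110.3 TPM in mimic libraries 1 to 3. The groups overlapped throughout, with a log2 fold change of -0.0099 (SE 0.064, limma adjusted p = 0.986). CCNB1, its main cyclin at mitosis, measured 218, 239.5 and 222 TPM in control and 224, 227 and 218 TPM in mimic libraries, and its log2 fold change was -0.020 (SE 0.053, limma adjusted p = 0.966). The mimic values of CCNB1 lay inside the control range. CCNA2, an A-type cyclin, was at 175.5 ± 6.24 TPM with the control and 179.8 ± 7.03 TPM with the mimic, and CCNB2 at 119 ± 2.65 and 124 ± 8.17 TPM (mean ± SD over 3 libraries, here and below control first). CDC25C, the phosphatase that removes the inhibitory phosphates from CDK1, and CDCA3, an adaptor in the destruction of the inhibitory kinase WEE1, were low, at 15.6 ± 1.31 and 15.3 ± 0.616 TPM for CDC25C and 15.2 ± 0.572 and 14.5 ± 0.784 TPM for CDCA3 (n = 3 each).

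The related small CDK-binding subunits CKS1B and CKS2 were the genes of this role in which the groups did not overlap, and they lay on opposite sides of 0. CKS2 (chr9:89311198-89316703, plus strand) measured 336, 341 and 325 TPM in control and 315, 313 and 278 TPM in mimic libraries. Every mimic library was below every control library, mimic library 3 most of all. The log2 fold change of CKS2 was -0.15 (SE 0.060) with a limma adjusted p of 0.423, and CKS2 was the 1 gene of the 39 with an unadjusted p under 0.05, which it kept in 10 of 16 alternatives (p 0.0208 to 0.132). Without mimic library 3 its log2 fold change was -0.089 (limma adjusted p = 0.561). Under median-of-ratios scaling CKS2 missed that p and the 1 gene under it was BUB1, on the higher side. CKS1B (chr1:154974653-154979249, plus strand) measured 109.5, 111 and 109 TPM in control and 115, 113 and 116 TPM in mimic libraries, with a log2 fold change of 0.065 (SE 0.046, limma adjusted p = 0.732). CKS1B had the lowest coefficient of variation of the 39 genes in control cells, 0.93%, and its groups separated without passing the test. Whether the 2 genes differ from each other in response was not tested.

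Among the mitotic kinases and the chromosomal passenger complex, which corrects faulty chromosome attachments, 0 of 6 passed, and 5 of 6 fold changes were below 0 (median -0.071), or 4 of 6 under median-of-ratios or quantile scaling. BIRC5, the passenger subunit survivin and the highest of this role, measured 126, 133 and 116 TPM in control and 125, 136 and 128 TPM in mimic libraries, with a log2 fold change of 0.052 (SE 0.066, limma adjusted p = 0.903). CDCA8, the passenger subunit borealin (chr1:37692418-37709719, plus strand), measured 86.7, 97.1 and 90.7 TPM in control and 86.5, 84.0 and 85.8 TPM in mimic libraries. Its groups did not overlap, by the gap between 86.5 and 86.7 TPM, and the log2 fold change was -0.097 (SE 0.057, limma adjusted p = 0.640). AURKB, the kinase of the same complex, was at 103.5 ± 6.58 and 99.0 ± 2.71 TPM (n = 3 each). PLK1, which acts at mitotic entry and on the spindle, was at 105 ± 5.32 and 99.3 ± 3.46 TPM, and AURKA, the kinase of the spindle poles, at 90.7 ± 4.42 TPM in control cells with a log2 fold change of -0.092 (SE 0.057). NEK2, which separates the centrosomes, was the lowest of the role at 39.03 ± 1.46 and 38.7 ± 2.17 TPM (n = 3 each).

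Among the spindle checkpoint and APC/C genes, 0 of 6 passed, with a median log2 fold change of -0.0074 (0.014 under median-of-ratios scaling). CDC20, which activates the APC/C and is the target of the checkpoint, measured 213, 235 and 217 TPM in control and 214, 199 and 233.9 TPM in mimic libraries. The lowest and the next to highest value of CDC20 both came from the mimic group, and the log2 fold change was -0.038 (SE 0.070, limma adjusted p = 0.941). BUB1, a checkpoint kinase at the kinetochore (chr2:110637698-110678114, minus strand), had the highest fold change of the 39 genes, with 50.2, 54.4 and 52.9 TPM in control and 55.8, 57.3 and 54.0 TPM in mimic libraries. Only mimic library 3 fell inside the control range, and the log2 fold change was 0.084 (SE 0.056, limma adjusted p = 0.703). BUB1B, its checkpoint partner BUBR1, was at 90.8 ± 2.01 and 87.7 ± 4.04 TPM (n = 3 each), with an interval of -0.17 to 0.073. The ubiquitin-conjugating enzyme UBE2C, which works with the APC/C, was at 189.6 ± 9.002 and 184 ± 6.16 TPM, and PTTG1, the securin that the APC/C destroys at anaphase, at 162 ± 11.8 and 165.5 ± 1.95 TPM (n = 3 each).

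Of the kinetochore genes 0 of 4 passed, and of the kinesins 0 of 4. NDC80, the microtubule-binding subunit of the outer kinetochore and the highest of its role, measured 67.4, 69.0 and 70.9 TPM in control and 67.5, 75.1 and 65.6 TPM in mimic libraries, so mimic libraries 2 and 3 lay on either side of the control range. Its log2 fold change was 0.0044 (SE 0.063, limma adjusted p = 0.994). CENPA, the histone variant that marks the centromere, was at 45.4 ± 2.74 and 44.5 ± 1.90 TPM, CENPF at 66.2 ± 2.98 and 68.0 ± 2.78 TPM, and the motor protein CENPE at 57.1 ± 2.86 and 54.0 ± 3.51 TPM (n = 3 each).

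Among the kinesins, KIF20A, a motor of the central spindle (chr5:138178719-138187715, plus strand), measured 122, 123 and 119.9 TPM in control and 117, 114 and 114.5 TPM in mimic libraries. All mimic values of KIF20A lay below all control values, by a log2 fold change of -0.083 (SE 0.046, limma adjusted p = 0.607). KIF11, the motor that pushes the spindle poles apart (chr10:92593286-92655395, plus strand), measured 94.3, 101 and 103 TPM in control and 105, 107 and 101 TPM in mimic libraries. The groups overlapped through mimic library 3, and the log2 fold change was 0.068 (SE 0.055, limma adjusted p = 0.789), the next highest after BUB1. KIF23, the motor of the centralspindlin complex, was at 56.6 ± 4.40 and 54.9 ± 1.76 TPM, and KIF2C, which takes microtubule ends apart, at 72.3 ± 1.94 and 71.3 ± 1.46 TPM (n = 3 each).

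Spindle assembly and cytokinesis genes gave 0 of 6 and 0 of 3 past the threshold. TPX2, which activates AURKA on the spindle, measured 257.5, 269.7 and 262 TPM in control and 258, 257 and 249.7 TPM in mimic libraries, with a log2 fold change of -0.046 (SE 0.047, limma adjusted p = 0.862). ANLN, the scaffold anillin of the contractile ring, measured 129, 143 and 145 TPM in control and 134, 143 and 129 TPM in mimic libraries, with a log2 fold change of -0.035 (SE 0.064, limma adjusted p = 0.942). In both genes the groups overlapped. ECT2, the activator of RHOA at the division plane, was at 70.4 ± 3.61 and 67.1 ± 5.10 TPM, and PRC1, which bundles the central spindle, at 111 ± 3.40 and 114 ± 1.35 TPM (n = 3 each). ASPM, which acts at spindle poles, was at 65.1 ± 3.49 and 61.98 ± 4.63 TPM (n = 3 each). NUSAP1, a microtubule-binding protein of the spindle, had the fold change nearest to 0 of the 39, -0.0018 (0.020 under median-of-ratios scaling), with 89.1 ± 2.48 and 89.0 ± 3.77 TPM (n = 3 each).

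The chromosome genes TOP2A and MKI67, the common proliferation markers of the list, gave 0 of 2 past the threshold. TOP2A, the topoisomerase that untangles sister chromatids (chr17:40388516-40417950, minus strand), measured 251, 264 and 267 TPM in control and 248, 269 and 235 TPM in mimic libraries, with a log2 fold change of -0.057 (SE 0.061, limma adjusted p = 0.869). The mimic libraries thus held both the highest and the lowest TOP2A value. MKI67, the Ki-67 protein that coats mitotic chromosomes (chr10:128096659-128126385, minus strand), measured 74.6, 79.4 and 79.0 TPM in control and 70.6, 70.6 and 74.6 TPM in mimic libraries. Its highest mimic value exceeded its lowest control value by a margin beyond the printed digits, so the groups met without separating. The log2 fold change of MKI67 was -0.11 (SE 0.053, limma adjusted p = 0.533, interval -0.23 to 0.013).

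As a list, the 39 genes had a median log2 fold change of -0.027, beside -0.017 for all tested genes, and their fold changes had an SD over genes of 0.055, beside 0.19 for all tested genes and 0.12 for tested genes in the same range of mean TPM. The genes of that range had a median level of 41.2 TPM beside 101 TPM for the list, so the SDs are not compared at matched level. The list's median log2 fold change was -0.058 without control library 1, -0.057 without mimic library 2, -0.0085 without control library 2 and -0.0090 without mimic library 3, beside all-gene medians of -0.036, -0.023, -0.0045 and -0.018. Under median-of-ratios scaling it was -0.0056 and that of all tested genes 0.0034, and under quantile scaling -0.015 and 0.0035. Below 0 lay 27 of 39, where 56.6% of tested genes did, and this number was 21 under median-of-ratios scaling. The summed level of the list was 4525 ± 106 TPM over the control and 4434 ± 141 TPM over the mimic libraries (n = 3 each), or 0.430% to 0.463% of all TPM in a library. Control libraries 1 to 3 summed to 4416, 4628 and 4531 TPM and mimic libraries 1 to 3 to 4412, 4585 and 4304 TPM, so the groups overlapped and the spread within each was larger than the difference between their means. In bulk RNA a change in the share of dividing cells and a change in transcript per dividing cell cannot be told apart.

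**Figure D3:**
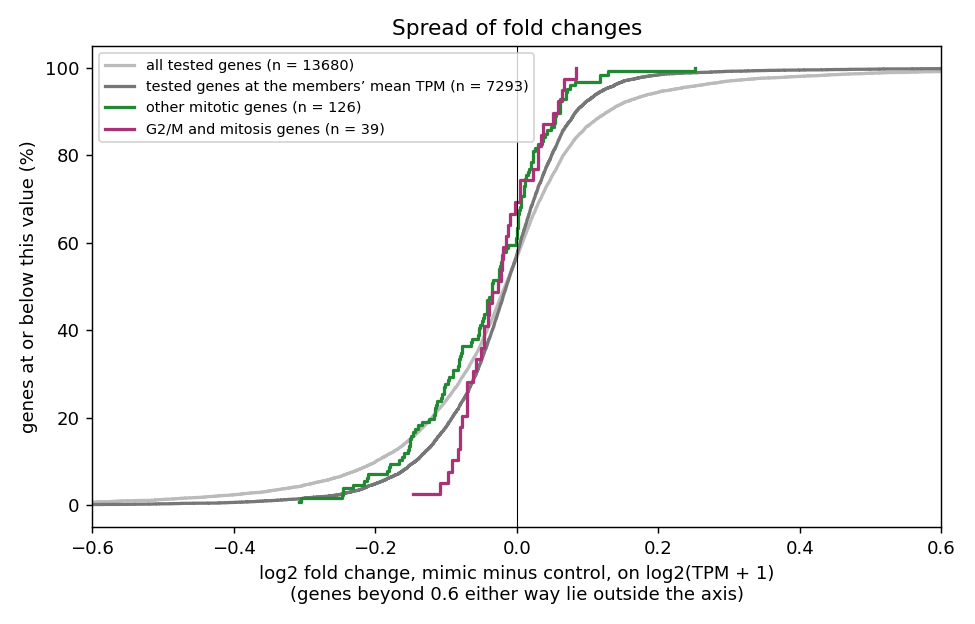
Cumulative share of genes (%) by log2 fold change, mimic minus control, for the 39 G2/M and mitosis genes, 126 other mitotic genes, the 7293 tested genes in the same range of mean TPM and all 13680 tested genes. The curve of the 39 genes is the steepest of the 4 and crosses from 0% to 100% between -0.15 and 0.084.

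Libraries of the same group differed from each other over the list. After each gene was set to its own mean, the median deviation of the 39 genes in log2(TPM + 1) was -0.027, 0.052 and 0.019 in control libraries 1 to 3 and -0.026, 0.043 and -0.047 in mimic libraries 1 to 3. Mimic library 2 was the highest of the mimic libraries for 28 of 39 genes (71.8%) and mimic library 3 the lowest for 25 (64.1%), against 47.0% and 40.6% of all tested genes. In the control group, library 2 was the highest for 23 of 39 (59.0%, against 42.8% of tested genes) and library 1 the lowest for 24 (61.5%, against 58.5%). The medians of all tested genes were -0.035, 0.037, 0.030, -0.019, 0.010 and -0.020 in the same order, with the sign of the list's median in each library. The estimated depth was 35600000 reads in mimic library 2, the highest of the 6, and 29600000 in mimic library 3, the lowest, and its part in these shifts was not tested.

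The genes that moved most between mimic libraries were the spindle and checkpoint genes TTK, DLGAP5, HMMR and CKAP2. TTK, the checkpoint kinase MPS1, measured 46.6, 56.5 and 45.1 TPM in mimic libraries 1 to 3 and 47.7, 48.0 and 49.5 TPM in control libraries, which gave it the highest coefficient of variation of the 39 genes in either group, 12.6% in the mimic group beside 1.94% in its controls. DLGAP5, a microtubule-binding protein of the spindle, measured 214, 246 and 200.2 TPM in mimic and 209, 221 and 227 TPM in control libraries. HMMR, which shapes the spindle poles, measured 90.4, 93.6 and 76.8 TPM in mimic and 82.1, 88.0 and 92.9 TPM in control libraries, and CKAP2 measured 114, 129.8 and 109 TPM in mimic and 122, 119.9 and 129.7 TPM in control libraries. In all 4 genes mimic library 2 was the highest and mimic library 3 the lowest of the mimic group. In 4 of the 39 genes, CDC20, PLK1, CKS1B and MKI67, mimic library 3 was instead the highest of its group. Mimic library 2 was the lowest of its group in CDC20, PLK1 and CKS1B, and mimic library 1 in MKI67. Over the 39 genes the coefficient of variation was 0.93% to 8.43% for control libraries and 1.18% to 12.6% for mimic libraries.

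**Figure D4:**
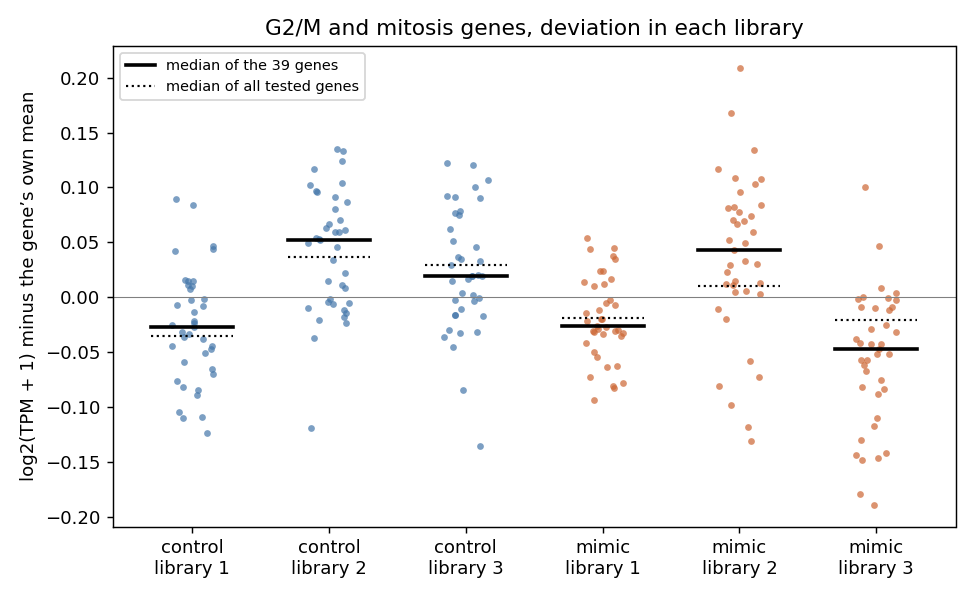
Deviation of each of the 39 genes from its own mean in log2(TPM + 1), by library (points), with the median of the 39 genes (solid line) and of all 13680 tested genes (dotted line). Control library 2 and mimic library 2 lie highest, at medians of 0.052 and 0.043, and mimic library 3 lies lowest, at -0.047.

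Letter matches to the microRNA's seed were searched in the 3′ UTRs of the listed genes. The mature miR-409-3p is printed with its seed, bases 2 to 8, in capitals (RefSeq, GRCh38.p14, chr14:101065346-101065367, plus strand), followed by the 2 sites in annotated 3′ UTRs of the list that match the whole seed, in 30-base windows with the pairing bases in capitals. The UTRs are the longest annotated in GENCODE 29 on GRCh38, and the sites are written as DNA.
miR-409-3p: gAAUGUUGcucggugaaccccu
BIRC5 site, chr17:78223646-78223675, plus strand: gcaatgtcttaggaaaggagatCAACATTt
TOP2A site, chr17:40388757-40388786, minus strand: tggattgcagaagactcggggaCAACATTt

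Seed matches of 7 bases or more were in 2 of 39 listed genes (5.13%), against 1572 of 11855 tested protein-coding genes with a 3′ UTR of at least 30 nt (13.3%), and neither had the 8mer CAACATTA. The UTRs of the list were shorter, with a median of 654 nt against 1383 nt. The site carriers BIRC5 and TOP2A had log2 fold changes of 0.052 and -0.057, on opposite sides of 0 and neither past the test. A further 12 genes (30.8%, against 22.5% of tested protein-coding genes) carried the 6mer AACATT alone, among them HMMR and ECT2 with 2 copies each. Their median log2 fold change was -0.025, beside -0.038 for the 25 genes with none. Over the 11855 tested protein-coding genes the carriers were not lower either. Their medians were -0.0165 with a seed match of 7 bases, -0.0152 with the 6mer alone and -0.0211 with no match. CKS2, the gene with the lowest fold change, had no match of 6 bases. A match is a description of letters, not of binding.

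Around the 39 genes, a list of 127 other mitotic genes held the regulators and partners of the same machinery, and 126 of them were tested, with CCNB3 below the filter. Of the 126, 0 rose and 0 fell past the threshold by limma with Benjamini-Hochberg adjustment, with a median log2 fold change of -0.034. Without adjustment, p was under 0.05 for 1 higher and 13 lower genes (10.3% lower, against 7.64% of tested genes). The lowest limma adjusted p of the 126 was 0.120, for PSRC1, listed as a spindle gene (log2 fold change -0.25, SE 0.056). The groups did not overlap in 18 lower and 2 higher genes, where 10.5% of tested genes were lower and 5.16% higher without overlap. By role the unadjusted counts of lower genes were 5 of 30 kinetochore and passenger genes, 3 of 12 entry phosphatases, inhibitors and kinases, 3 of 22 spindle and kinesin genes, 1 of 16 transcription regulators, 1 of 15 condensin and cohesin genes, 0 of 23 checkpoint and APC/C genes and 0 of 8 cytokinesis partners.

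The transcription factors that act at the CHR element did not pass either. FOXM1 measured 96.2, 103.5 and 98.2 TPM in control and 102, 98.5 and 110.4 TPM in mimic libraries, with a log2 fold change of 0.061 (SE 0.060, limma adjusted p = 0.855). MYBL2 measured 177, 197 and 181 TPM in control and 183, 169.7 and 205 TPM in mimic libraries, with a log2 fold change of 0.0016 (SE 0.077, limma adjusted p = 0.999). In both, mimic library 3 was the highest and mimic library 2 the lowest of the mimic group, the reverse of the order in TTK, DLGAP5, HMMR and CKAP2. LIN37, a DREAM subunit, had the lowest fold change of the wider list, -0.31 (SE 0.13, limma adjusted p = 0.449), at 6.33, 6.18 and 7.41 TPM in control and 6.15, 4.19 and 5.31 TPM in mimic libraries, a low level whose groups barely separated.

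Of 12 tested genes in the role of entry phosphatases, inhibitors and their kinases, 0 passed the threshold, with a median log2 fold change of -0.11 and a range of -0.31 to 0.25. CDC25B, a phosphatase that activates CDK1, was at 0.011 and MASTL, a kinase of mitotic entry, at -0.077 on this scale. The related phosphatase gene CDC25A was lower, at -0.25 (SE 0.076, limma adjusted p = 0.259), and its groups did not overlap. CDC25A is also 1 of the 44 S phase and replication genes counted below. WEE1, the kinase that inhibits CDK1, measured 20.1, 22.6 and 20.9 TPM in control and 18.2, 18.8 and 16.7 TPM in mimic libraries, and every mimic value lay below every control value (log2 fold change -0.23, SE 0.073, limma adjusted p = 0.267). CCNF, the cyclin F subunit of a ubiquitin ligase, which was listed in the same role, measured 26.5, 30.2 and 25.9 TPM in control and 20.6, 22.0 and 23.5 TPM in mimic libraries, again without overlap (log2 fold change -0.31, SE 0.079, limma adjusted p = 0.169). The CDK inhibitor gene CDKN1A measured 174, 206 and 173 TPM in control and 154, 144 and 179 TPM in mimic libraries, which overlapped (log2 fold change -0.21, SE 0.095, limma adjusted p = 0.483). The related inhibitor gene CDKN1C had the highest fold change of the wider list, 0.25 (SE 0.10, limma adjusted p = 0.421), at 3.99, 4.804 and 4.05 TPM in control and 5.21, 5.68 and 4.97 TPM in mimic libraries. SPC24, a partner of NDC80, was next, at 0.13 (SE 0.065, limma adjusted p = 0.546). It measured 56.4, 60.17 and 56.7 TPM in control and 60.21, 61.3 and 68.6 TPM in mimic libraries. Every mimic value of SPC24 and of CDKN1C lay above every control value, by a narrow gap in SPC24. Of the 44 S phase and replication genes, the preceding step of the cycle, 1 fell past the threshold, E2F8, a repressor of the E2F family, at 19.2, 24.2 and 23.4 TPM in control and 14.03, 13.96 and 13.97 TPM in mimic libraries, without overlap (limma log2 fold change -0.63, SE 0.089, adjusted p = 0.0296). E2F8 stayed past the threshold in 8 of 16 alternatives (adjusted p 0.00973 to 0.161) and, with 1 library left out, only without control library 1. Whether S phase and mitotic genes differ in response was not tested.

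Reads of some listed genes may be shared with neighbours. In GENCODE 29, 13 of the 39 genes have exons that overlap those of another annotated gene, 10 of them on the opposite strand (KIF20A with CDC23, for example) and 4 on the same strand, and the sources used here do not give the use of strand or the treatment of reads that match several genes. The values of these 13 genes are uncertain to that extent.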

How the data were processed

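RNA-seq libraries of 3 control and 3 mimic samples were analysed. For each library the authors deposited TPM values (transcripts scaled to a fixed total) by Ensembl gene ID, per the file headers. The submitters' processing notes name hg38 and GRCh38.p13. The sources used here do not give the aligner, counter, annotation or strand setting. Per the labels' design text, each RNA sample was a pool of technical replicates. Symbols came from an Ensembl table (45102 of 45372 IDs matched) and positions and UTRs from GENCODE 29 on GRCh38.

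TPM keeps no depth, so depth was estimated from low values and GENCODE exon lengths. Between 69.5% and 76.9% of values implying up to 10 reads were whole numbers within 0.05 reads. By the same estimate the 39 genes had 377 to 15290 reads per library, without molecular identifiers, so PCR copies are included.

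limma 3.58.1 in R 4.3.3 (trended prior, group as the only term, two-sided) was fitted to log2(TPM + 1) of the 13680 genes that reached 1 TPM in 3 or more libraries, with Benjamini-Hochberg adjustment over all of them. The fit was tested on simulated data. Other filters, pseudocounts, scalings, an untrended prior, a replicate block and leaving out each library were alternatives. Genes given in full were the highest of each role, the 3 highest and 3 lowest fold changes, any with an unadjusted p under 0.05, and CDK1, CCNB1, MKI67 and TOP2A, and, of the wider list, FOXM1, MYBL2, CDKN1A, WEE1 and the 2 highest and 2 lowest. The most variable genes TTK, DLGAP5, HMMR and CKAP2, and NUSAP1 and E2F8, were singled out after their values were seen. The members and lists were chosen with earlier results of these data known. Where a gene has several RefSeq starts the outermost was used, or the first listed. Python 3.11.15, numpy 2.4.6, pandas 2.3.3 and matplotlib 3.10.9 were used.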

Additional observations from a re-analysis of the deposited data

How the results depend on the processing

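The count of listed genes past the threshold stayed at 0 higher and 0 lower under all 16 alternatives, as did that of the other mitotic genes, and the lowest limma adjusted p of any listed gene under any of them was 0.314 (quantile scaling). A fit on protein-coding genes only and one with a robust prior were added after seeing the data. The median log2 fold change of the 39 genes, -0.027, ran from -0.058 to -0.0085 when 1 library was left out, and was -0.0056 under median-of-ratios and -0.015 under quantile scaling, all moves within the SD between libraries of 0.044. Single genes stayed between -0.18 and 0.11 in log2 fold change, and 622 of 624 values moved by less than 1 replicate SD, the exceptions being CKS1B (0.086) and KIF20A (-0.062) with median-of-ratios scaling. Fold changes could move only with another pseudocount or scaling or with a library left out. The other alternatives leave the fitted value of a gene as it is, so their share of the 624 values was fixed in advance. Leaving out 1 of 3 libraries shifts a fold change by less than 1 replicate SD whatever the values are, so that share was fixed as well. Only the other pseudocounts and scalings could have given an exception. The number of genes below 0, 27, ran from 21 to 29, and 25 of 39 genes kept their sign throughout. The number of lower genes with an unadjusted p under 0.05, 1 for CKS2, ran from 0 (median-of-ratios scaling, an untrended prior, and without control library 2 or 3) to 3 (no filter), and that of higher genes was 1 under median-of-ratios scaling (BUB1) and 0 otherwise. Over the whole table, 59 genes were past the threshold, and this number ran from 9 (without mimic library 1) to 176 (protein-coding genes only), with 11 under no filter, 115 at 5 TPM, 119 with a robust prior and 20 when the prior was not trended.

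Same-numbered control and mimic libraries did not deviate together over genes (r of 0.031, -0.087 and -0.11 for numbers 1 to 3), so the numbers were not taken as pairs. With the replicate number as a block 0 listed genes passed, and the lowest limma adjusted p was 0.529. The median log2 fold change, which a block cannot change in this design, was -0.027. Genes past the threshold over the whole table fell from 59 to 14.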
